A study of Mus musculus with 6 samples.

Results

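The genes of the *Myc* and *Mxd* network were examined in bulk RNA-seq of the cerebellum at postnatal day 1 (P1) from control and mutant mice. The members were chosen by gene name as the Myc family (*Mycn*, *Myc* and *Mycl*), the shared partner *Max* and its relative *Mlx*, the Mxd repressors (*Mxd1*, *Mxd3*, *Mxd4* and *Mxi1*) and *Mga*, which make 10 of the 54532 genes in the count table. All 10 passed the filter on low counts, as did 17505 genes in all. The control libraries (n = 3) came from cerebella with *Tox3* f/f, a floxed allele on both chromosomes, without Cre, and the mutant libraries (n = 3, labelled cKO) from *Nestin-cre*; *Tox3* f/f cerebella. The floxed alleles were therefore shared by every animal, while the transgene was present in each mutant and in no control, so that an effect of Cre itself and an effect of the deletion cannot be told apart. Nestin-Cre acts in neural progenitors and their progeny throughout the nervous system, so the deletion was not limited to granule neuron progenitors (GNPs), the dividing cells of the external granule layer. Animals of both sexes were used, and the labels do not say that each library came from a single animal or which libraries shared a litter, so p-values measure the spread between these libraries.

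Myc proteins are basic helix-loop-helix leucine zipper factors that bind DNA only as heterodimers with Max, mainly at the E-box CACGTG, and activate genes of growth and cell division. Mxd proteins and Mnt compete for Max and for the same sites and recruit Sin3 corepressor complexes, so that the balance of Myc and Mxd members sets the output of their common targets. Mlx pairs with some Mxd proteins and with the glucose-sensing factors Mlxip and Mlxipl, and Mga couples Max to a Polycomb complex, PRC1.6. In GNPs, *Mycn* is a known target of Sonic hedgehog signalling that promotes their division, and *Mxd3* is known as the Mxd member expressed in S phase of dividing progenitors, whereas *Mxd4* and *Mxi1* are associated with cells that leave the cycle.

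Promoter windows from RefSeq on GRCm38.p6, reaching from 250 bases before to 50 bases after the annotated start, were found for 9 of the 10 members, all except *Myc*. They were searched on both strands for the E-box CACGTG, for 2 forms of the E2F motif, TTTGGCGC and TTCCCGCC, which do not overlap each other, and for the GLI motif GACCACCCA. These motifs were chosen with the sequences and the expression results in view. The bases upstream of the gene are shown for *Mycn* and *Mxd3*, the members that passed both thresholds, and for *Mxd4*, the member that differed most in the other direction. Capitals mark a motif match, and no gene in the count table overlaps any of the 3 stretches. Each sequence is written 5′ to 3′ in the direction of its gene, which lies on the minus strand of the chromosome.
Mycn, chr12:12941915-12942086: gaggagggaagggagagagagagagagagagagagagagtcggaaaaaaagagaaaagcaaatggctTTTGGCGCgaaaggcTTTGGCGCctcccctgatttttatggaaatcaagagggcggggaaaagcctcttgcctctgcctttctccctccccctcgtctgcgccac
Mxd3, chr13:55329824-55329981: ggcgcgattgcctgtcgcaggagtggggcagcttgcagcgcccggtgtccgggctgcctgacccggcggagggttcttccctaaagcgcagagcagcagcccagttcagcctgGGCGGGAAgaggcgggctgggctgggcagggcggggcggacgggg
Mxd4, chr5:34187721-34187960: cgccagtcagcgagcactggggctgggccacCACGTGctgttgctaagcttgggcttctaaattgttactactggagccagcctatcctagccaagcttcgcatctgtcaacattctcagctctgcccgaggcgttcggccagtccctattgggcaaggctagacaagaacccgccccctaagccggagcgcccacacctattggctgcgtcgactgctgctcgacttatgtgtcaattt
The *Mycn* window held TTTGGCGC at positions −183 and −168 from the RefSeq start, a motif found in 0.514% of 32851 promoter windows. The *Mxd3* window held TTCCCGCC in the reverse orientation at −137, a motif found in 2.19% of windows. Since both E2F forms were searched, the share of windows with either form, 2.68%, is the background for a match. *Mxd4* had an E-box at −219, and so did *Max* at −3 and *Mlx* at −40, against 7.15% of all windows. No member's window held the GLI motif, which was found in 0.253% of windows. These matches are descriptions of the sequence and were not tested for binding.

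In the mutant cerebellum, *Mycn* and *Mxd3* were downregulated, and no member was upregulated. *Mycn* fell by 34.9% and *Mxd3* by 41.2%, whereas *Myc*, *Mxd1*, *Mxd4*, *Mxi1* and *Mlx* differed from control by at most 12.7%. *Mga*, *Mycl* and *Max* lay between, with changes of −31.4%, −25.3% and −13.5%, and were not called. Calls required both an adjusted p under 0.01 and a change of over 0.5 on the log2 scale. Adjusted p-values are from edgeR's quasi-likelihood test across all genes, with Benjamini-Hochberg adjustment. By this rule 2 of 10 members were lower, against 3.63% of all tested genes, and 0 of 10 were higher, against 3.03%. With no threshold on the fold, 3 members were lower at an adjusted p under 0.01, against a background of 7.24%, and 0 were higher, against 6.55%. At an unadjusted p under 0.05, 5 members were lower, against 19.0% of tested genes, and 1 was higher, against 18.2%. Control and mutant values were fully separate in 3 members that were lower in mutants, against 20.1% of tested genes, and in 2 that were higher, against 20.4%. The number of separated members was thus near the background in both directions. Of the 10 members, 7 had a log2 fold change below 0, against 50.9% of all tested genes. The median was −0.14, against −0.01 over all tested genes.

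**Figure D1:**
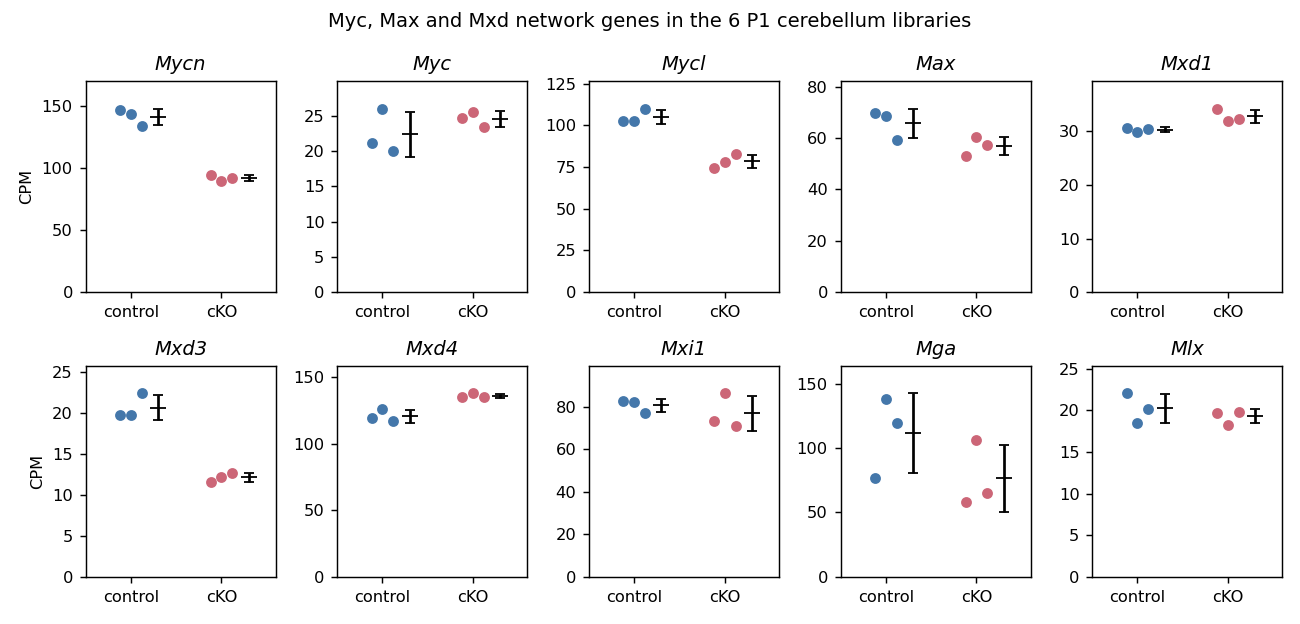
Expression of each member in CPM (counts scaled to a common library total, vertical axis from 0) in the 3 control (blue) and 3 mutant (cKO, red) libraries; the black mark and bar give the mean ± SD of 3. *Mycn*, *Mycl* and *Mxd3* lie lower in every mutant library than in any control, *Mxd4* and *Mxd1* higher, and *Mga* varies within each group.

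*Mycn* (ENSMUSG00000037169, chromosome 12, 12936093 to 12941914, minus strand, GRCm38) encodes N-Myc, the Myc family member of neural progenitors. It was counted at 147, 144 and 134 CPM in control 1, 2 and 3 and at 94.4, 89.6 and 91.8 CPM in mutant 1, 2 and 3. CPM here are counts over the normalized library total. Each mutant library lay below each control, and the coefficient of variation within groups was 4.81% in controls and 2.62% in mutants. The log2 fold change was −0.62 (standard error 0.054, 95% interval −0.74 to −0.50, adjusted p = 4.92e-05). Of all tested genes, 5.59% had a lower log2 fold change.

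*Mycl* (ENSMUSG00000028654, chromosome 4, 122995652 to 123002485, plus strand) encodes L-Myc. It was counted at 103, 102 and 110.0 CPM in controls and at 74.7, 78.3 and 82.5 CPM in mutants, so the groups were again separate. The difference of −0.42 on the log2 scale (standard error 0.058, adjusted p = 7.12e-04) passed the threshold on p and not that on the fold, and its 95% interval, −0.55 to −0.29, reached past −0.5. *Myc* (ENSMUSG00000022346, chromosome 15, 61985391 to 61990374, plus strand), the founding member, was counted at 21.1, 26.0 and 20.0 CPM in controls and at 24.7, 25.6 and 23.4 CPM in mutants. All 3 mutant values lay within the control range, and the log2 fold change was 0.14 with a 95% interval of −0.10 to 0.38 (adjusted p = 0.395). The Myc family was thus lower in its 2 most abundant members, and no difference in *Myc* was detectable at this spread.

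*Max* (ENSMUSG00000059436, chromosome 12, 76937269 to 76962201, minus strand), the obligate partner, was counted at 69.7, 68.4 and 59.3 CPM in controls and at 53.2, 60.3 and 57.4 CPM in mutants. The ranges overlapped through control 3 and mutant 2, and the log2 fold change was −0.21 (95% interval −0.38 to −0.03, adjusted p = 0.0796). *Mlx* (ENSMUSG00000017801, chromosome 11, 101087277 to 101092207, plus strand) was counted at 22.1, 18.6 and 20.2 CPM against 19.7, 18.3 and 19.9 CPM. Its log2 fold change was −0.07 (95% interval −0.28 to 0.14, adjusted p = 0.628). *Mlx* overlaps 385 bases of the span of *Psmc3ip* on the other strand, and with the strand setting of the counting not given in the sources used here, reads there may be shared. *Max* overlaps 1319 bases of the span of *Gm47218* on its own strand, which had 49 to 94 counts per library and a log2 fold change of 0.29 (adjusted p = 0.359). *Psmc3ip* had 135 to 218 counts and was called lower (log2 fold change −0.56, adjusted p = 0.00492).

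*Mxd3* (ENSMUSG00000021485, chromosome 13, 55325168 to 55329823, minus strand), the Mxd member of dividing progenitors, had the largest fall of the 10. It was counted at 19.7, 19.8 and 22.4 CPM in controls, from 303 to 349 reads, and at 11.5, 12.3 and 12.6 CPM in mutants, from 188 to 203 reads. The groups were separate, and the lowest control was well above the highest mutant. The log2 fold change was −0.77 (standard error 0.096, 95% interval −0.98 to −0.55, adjusted p = 4.44e-04), and 3.54% of tested genes had a lower one. *Mxd3* overlaps *Prelid1* on the other strand by 105 bases of their spans. *Prelid1* had 1802 to 2224 counts per library and a log2 fold change of −0.06 (adjusted p = 0.465).

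None of the other Mxd members passed the test. *Mxd4* (ENSMUSG00000037235, chromosome 5, 34173883 to 34187720, minus strand) was counted at 119, 126 and 117 CPM in controls and at 135, 138 and 135 CPM in mutants. Each mutant lay above each control, by a log2 fold change of 0.17 (95% interval 0.06 to 0.28, adjusted p = 0.0272) that passed neither threshold. *Mxd1* (ENSMUSG00000001156, chromosome 6, 86647042 to 86669161, minus strand), first described in differentiating cells, was counted at 30.7, 29.9 and 30.4 CPM against 34.3, 31.9 and 32.3 CPM. Its groups did not overlap either, with a log2 fold change of 0.11 (95% interval −0.05 to 0.28, adjusted p = 0.295). *Mxi1* (ENSMUSG00000025025, chromosome 19, 53310506 to 53375810, plus strand) was counted at 82.8, 82.3 and 77.1 CPM against 73.4, 86.4 and 71.0 CPM, with mutant 2 above all controls and the other two mutants below them. Its log2 fold change was −0.07 (95% interval −0.24 to 0.10, adjusted p = 0.551).

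**Figure D2:**
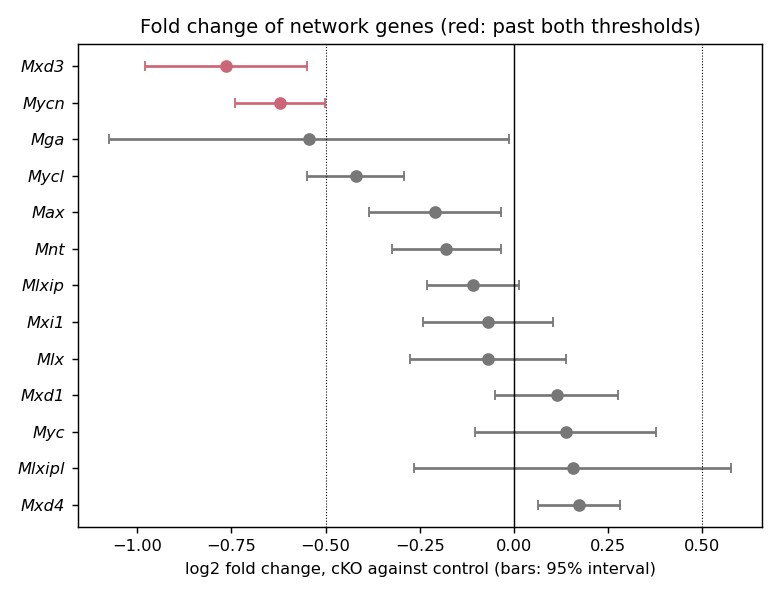
Log2 fold change in mutant against control (horizontal axis) of the 10 members and of *Mnt*, *Mlxip* and *Mlxipl*; points are estimates, bars 95% intervals from edgeR, and dotted lines mark −0.5 and 0.5. *Mxd3* at −0.77 and *Mycn* at −0.62, in red, passed both thresholds, and the interval of *Mga* runs from −1.08 to −0.01.

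*Mga* (ENSMUSG00000033943, chromosome 2, 119897228 to 119969581, plus strand), which has a T-box domain beside its helix-loop-helix and the longest transcript of the members at 15340 exonic bases, varied most. It was counted at 77.1, 138 and 119 CPM in controls and at 58.3, 106 and 65.0 CPM in mutants, and the coefficients of variation were 27.9% and 33.9%. The groups overlapped, and the difference of −0.54 on the log2 scale (standard error 0.24, 95% interval −1.08 to −0.01) had an adjusted p of 0.126. Control 1, mutant 1 and mutant 3 were the low libraries. The Y-linked gene *Ddx3y* was found in the same libraries, at 68.6 to 94.5 CPM, while the others had *Xist* at 1983 to 2419 CPM. Within each set the mutants were lower, with 106 CPM against 119 and 138 CPM among the *Xist* libraries and 58.3 and 65.0 CPM against 77.1 CPM among the *Ddx3y* libraries. With the Y-gene level as a covariate, the log2 fold change was −0.31 (adjusted p = 0.00187), past the threshold on p and not that on the fold.

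Long genes as a class moved with *Mga* in the same libraries. The median deviation of 855 genes of over 12000 exonic bases from their mean over the 6 libraries was −0.05, 0.11 and 0.04 on the log2 scale in control 1, 2 and 3, and −0.10, 0.08 and −0.09 in mutant 1, 2 and 3. The same median over 15407 shorter genes lay between −0.0031 and 0.012. Adding the long-gene level as a covariate, an alternative chosen after seeing the data, gave *Mga* a log2 fold change of −0.22 (adjusted p = 0.0295). Sex and transcript length separated the same libraries, so they cannot be told apart here. Without mutant 2 the log2 fold change of *Mga* was −0.85 (adjusted p = 0.00848) and *Mga* passed both thresholds, without control 1 it was −0.75 (adjusted p = 0.0327), and without control 2 it was −0.36 (adjusted p = 0.370).

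**Figure D3:**
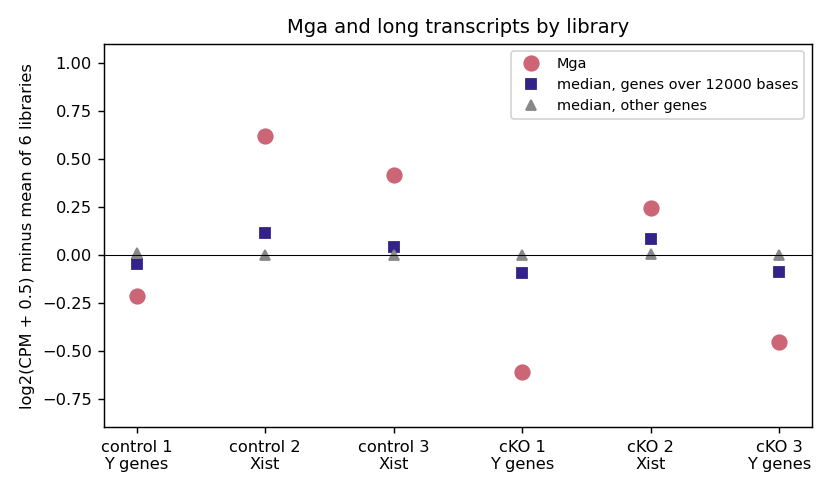
Deviation of *Mga*, of the median gene of over 12000 exonic bases (n = 855) and of the median of 15407 other genes from the mean over the 6 libraries (vertical axis, log2 of CPM + 0.5); the axis labels name the sex-linked RNA counted in each library. *Mga* and the long genes lie below 0 in control 1, cKO 1 and cKO 3, and the other genes stay near 0.

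Levels of different genes were compared as FPKM, the authors' values per gene length and library depth. In controls *Mycn* was the highest member at 42.5 ± 2.03 FPKM (SD, n = 3), higher than 94.0% of tested genes, followed by *Mycl* at 25.8 ± 1.06 and *Max* at 18.1 ± 1.55 FPKM. *Mxi1* and *Mxd4*, at 14.2 ± 0.552 and 14.1 ± 0.553 FPKM, came next and had overlapping ranges. *Mlx*, *Mxd3*, *Myc* and *Mga*, in this order down to 7.20 ± 2.01 FPKM, overlapped each with the next, and *Mxd1* was lowest at 4.25 ± 0.058 FPKM. In mutants *Mycn* and *Mycl* remained first and second, at 27.8 ± 0.861 and 19.3 ± 0.971 FPKM. *Mxd4* at 15.9 ± 0.114 FPKM overlapped *Max* at 15.7 ± 0.915 FPKM, and *Max* overlapped *Mxi1* at 13.6 ± 1.39 FPKM, which lay below *Mxd4* in every mutant. *Mxd3*, at 5.10 ± 0.231 FPKM, fell below *Myc* at 8.60 to 9.32 FPKM, with which it had overlapped in controls, and joined *Mga* and *Mxd1* at the bottom.

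The make-up of both families differed between the groups in every library. *Mycn* held 57.3%, 55.5% and 54.0% of the summed Myc family FPKM in controls and 50.9%, 48.6% and 49.0% in mutants. *Mxd3* held 20.1%, 19.9% and 22.9% of the Mxd family in controls and 12.6%, 12.5% and 13.9% in mutants. The summed Myc family level was 76.4 ± 1.74 FPKM in controls and 56.1 ± 0.704 FPKM in mutants, while the Mxd sum was 41.2 ± 0.430 and 39.3 ± 1.36 FPKM. The log2 ratio of the Myc sum to the sum of the Mxd family and *Mnt* was 0.50 ± 0.028 in controls and 0.15 ± 0.040 in mutants. All 3 measures were separate between the groups, and each gave p = 0.1 in an exact two-sided permutation test over the 6 libraries, before and after adjustment over the 3, which is the smallest value that 3 against 3 can give.

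**Figure D4:**
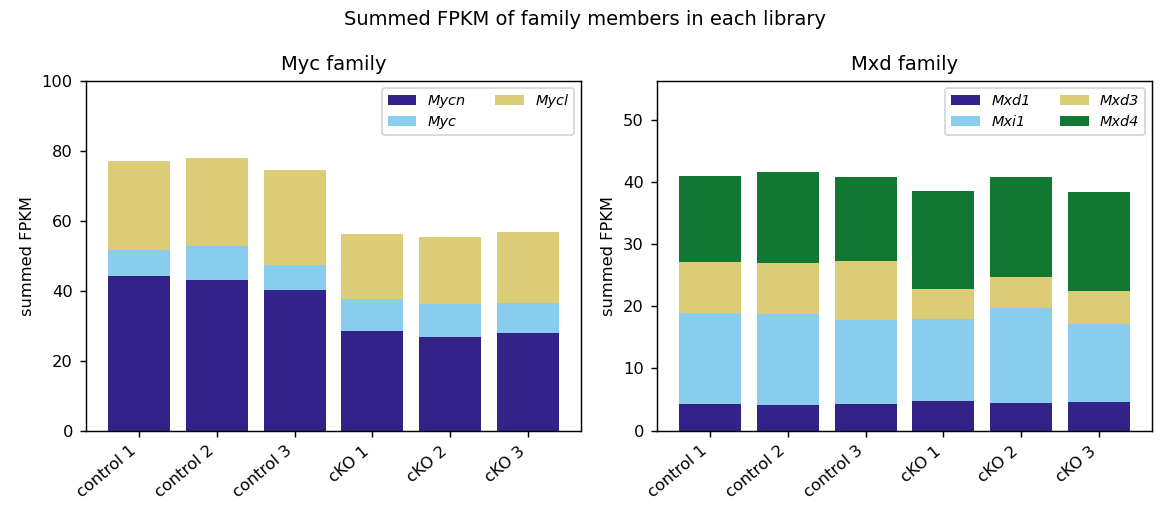
Summed FPKM (vertical axis, from 0) of the Myc family (left) and the Mxd family (right) in each library, stacked by member. The Myc stack is lower in each mutant, with a mean of 56.1 against 76.4 FPKM, and the Mxd stack, at 39.3 against 41.2 FPKM, has a thinner *Mxd3* layer.

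Ratios between members within a library were also compared. The log2 FPKM ratio of *Mxd3* to *Mxd4* was −0.71 ± 0.15 in controls and −1.64 ± 0.064 in mutants, the largest shift among the 45 pairs at −0.94. The ratio of *Mycn* to *Myc* was 2.39 ± 0.18 and 1.62 ± 0.086. By contrast, the ratio of *Mycn* to *Mxd3* was 2.30 ± 0.17 in controls and 2.45 ± 0.097 in mutants, with overlapping ranges, and that of *Mycn* to *Mycl*, also overlapping, was 0.72 ± 0.13 and 0.52 ± 0.097 in mutants. The pairs share members and were not tested.

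Genes whose profile over the 6 libraries was most like that of *Mycn* or *Mxd3* were ranked by the root mean square difference of log2(CPM + 0.5) from the control mean, among 16261 genes. For *Mycn* these were *Map3k13* (0.027), *Fam210b* (0.028) and *Tpx2* (0.033), and for *Mxd3* they were *Rassf3* (0.046), *Plcl1* (0.051) and *Gins1* (0.051). *Tpx2* encodes a spindle assembly factor that activates Aurora kinase A, and *Gins1* a subunit of the GINS complex of the replication fork. Neither was the closest match of its member, which was *Map3k13* for *Mycn* and *Rassf3* for *Mxd3*. The functions of the 6 genes were not counted against those of all genes. The log2 fold changes of these 6 genes lay between −0.81 and −0.60, and values close to those of *Mycn* and *Mxd3* follow from the ranking itself.

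The partners and cofactors of the network were followed in lists chosen by function. Of all tested genes, 3.63% were called lower, and 7.24% were lower at an adjusted p under 0.01 with any fold. None of the other partners of Max and Mlx passed the test, with log2 fold changes of −0.18 for the repressor *Mnt* (adjusted p = 0.0687), −0.11 for *Mlxip* (adjusted p = 0.182) and 0.16 for *Mlxipl* (adjusted p = 0.589), which was counted at only 3.32 to 4.49 CPM. Of 10 Myc coactivators, 1 was called lower, *Actl6a* (−0.57, adjusted p = 5.32e-04), an actin-related subunit of chromatin remodelling complexes. With no threshold on the fold, 3 of these coactivators were lower at an adjusted p under 0.01, and the median was −0.18. Of 10 Mxd corepressors none was called, and 3 were lower at an adjusted p under 0.01 with no threshold on the fold; the median was −0.11. Of 9 other subunits of PRC1.6 none was called, 1 was lower with no threshold on the fold, and the median was −0.15.

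Of 12 genes that control the stability of Myc and N-Myc proteins, 3 were downregulated and none upregulated. Over all tested genes these shares were 3.63% and 3.03%. With no threshold on the fold, 4 of the 12 were lower and 1 was higher at an adjusted p under 0.01. The background for this was 7.24% lower and 6.55% higher. The higher one was *Trim32* (0.33, adjusted p = 0.00237), a ubiquitin ligase, with each mutant above each control. Those called were *Aurka* (log2 fold change −1.05, adjusted p = 1.66e-04), a mitotic kinase that shields N-Myc from degradation, *Plk1* (−0.73, adjusted p = 4.80e-04), a mitotic kinase, and *Skp2* (−0.58, adjusted p = 0.00196), a ubiquitin ligase subunit of the cell cycle. The call of *Skp2* was lost under 4 of 19 alternatives, among them without mutant 3 (−0.55, adjusted p = 0.0112). All 3 are also expressed with cell division, and the median of the list was −0.06.

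Genes known as targets of Myc were followed in a pair of lists. The shares over all tested genes were 3.63% called lower and, at an adjusted p under 0.01 with any fold, 7.24% lower and 6.55% higher. Of 20 targets in ribosome biogenesis, 1 was called lower, *Dkc1* (−0.62, adjusted p = 8.30e-04), the pseudouridine synthase of small nucleolar RNPs, and 6 were lower at an adjusted p under 0.01 with no threshold on the fold. The log2 fold change of 18 of the 20 lay below 0, against 50.9% of all tested genes, and the median was −0.24. Of 16 targets in growth metabolism, 2 were called lower, *Shmt1* (−0.85, adjusted p = 2.55e-04), of one-carbon metabolism, and *Ppat* (−0.58, adjusted p = 0.00133), the first enzyme of purine synthesis. The call of *Dkc1* was lost under 1 of 19 alternatives and that of *Ppat* under 2, all of them limma on FPKM. In this list 7 were lower with no threshold on the fold, and the median was −0.13. None of the 36 targets was higher at an adjusted p under 0.01. Windows with an E-box were found for 2 of 15 ribosome biogenesis genes and 5 of 14 growth metabolism genes that had a window, against 8.09% of all genes.

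Sonic hedgehog genes and proliferation markers were counted in the same way, beside 3.63% of all tested genes called lower and 3.03% called higher. Of 10 Sonic hedgehog pathway genes, 7 were downregulated, with a median of −0.94, among them *Gli2* (−1.38, adjusted p = 1.12e-05), a transcription factor of the pathway, and *Ccnd1* (−1.05, adjusted p = 3.01e-06), which encodes cyclin D1. Of 10 proliferation markers, 9 were downregulated, with a median of −0.72, among them *Mcm6* (−0.82, adjusted p = 4.84e-06), a helicase subunit, and *Top2a* (−0.72, adjusted p = 1.54e-05), a topoisomerase. The log2 fold changes of *Mycn*, at −0.62, and of *Mxd3*, at −0.77, lay within the range of the proliferation markers, from −1.25 to −0.46. Both values also lay within the ranges of the Sonic hedgehog genes, from −1.38 to −0.02, and of granule neuron markers, from −1.16 to −0.30. The match was therefore not particular to proliferation markers. None of the Sonic hedgehog genes or proliferation markers was upregulated.

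**Figure D5:**
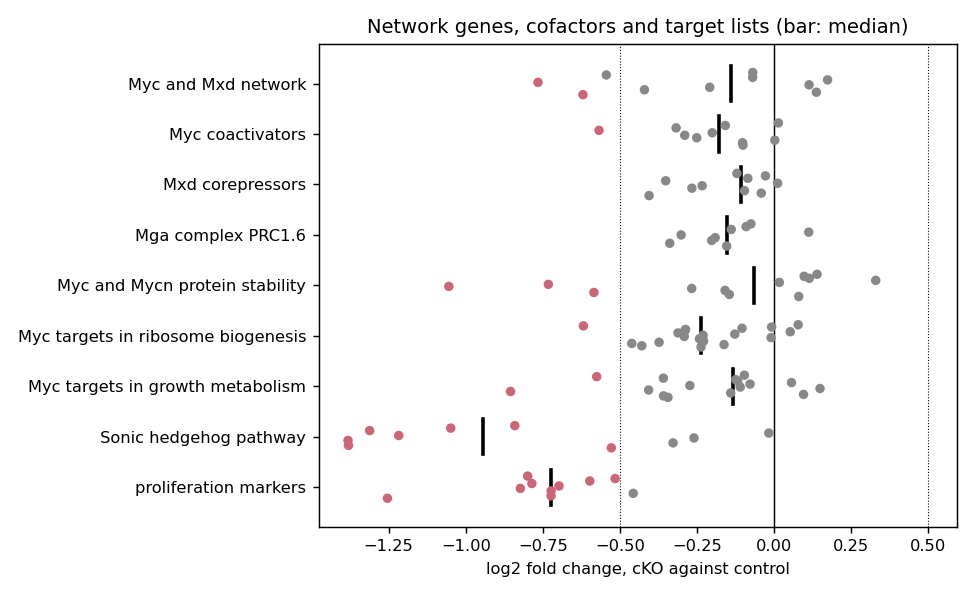
Log2 fold change in mutant against control (horizontal axis) of single genes (points) in the network and in 8 lists of cofactors and targets; black bars are medians, red points passed both thresholds and dotted lines mark −0.5 and 0.5. Medians lie between −0.24 and −0.06 for cofactors and Myc targets, at −0.94 for Sonic hedgehog genes and at −0.72 for proliferation markers.

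Cell type markers were counted as well, again beside 3.63% of all tested genes called lower and 3.03% called higher. All 5 GNP markers were downregulated, with a summed level of 839 to 929 CPM in controls and 347 to 369 CPM in mutants. Among them, *Atoh1*, *Barhl1*, *Sema7a* and *Col18a1* are GNP-enriched genes that the authors had reported as lower in *Tox3* mutants. The list was chosen with this known, so its count is a description and no separate support. The defining factor *Atoh1* was at 30.9 to 32.6 CPM in controls and at 0.249 to 0.577 CPM in mutants, and the other GNP markers were still counted. Granule neuron markers were called lower in 4 of 6 cases, with sums of 3140 to 3298 and 2207 to 2347 CPM. This list does not separate granule neurons from GNPs, since the authors found *Pax6* in all clusters of both. Their pooled single-nucleus libraries held comparable numbers of granule neurons in control and mutant. In the same libraries, the authors found a much lower percentage of GNPs in the mutant. In bulk tissue, fewer cells of a type and less RNA per cell cannot be told apart, and this holds for *Mycn*, *Mxd3* and *Mycl* beside these markers. Markers of other cells were called higher in 4 of 6 cases for Purkinje cells, 3 of 6 for astrocytes and Bergmann glia, 3 of 5 for the oligodendrocyte lineage, 2 of 5 for meninges and 1 of 5 for microglia, and in none of 5 for endothelium, 4 for erythrocytes and 4 for choroid plexus. Not all markers of a type went the same way, since *Pdgfra*, of oligodendrocyte precursors, was lower (−0.45, adjusted p = 3.07e-04) and 3 of the 5 meningeal markers had values below 0, with a median of −0.01. Over the 19 alternatives the number called higher was 3 to 6 for Purkinje cells, 2 to 5 for astrocytes and Bergmann glia and 0 to 2 for microglia. The microglia call, *C1qa*, was lost without control 1, control 2, mutant 1 or mutant 3 (adjusted p = 0.0234 to 0.0323). The Purkinje call of *Itpr1* was lost without control 1, control 3, mutant 2 or mutant 3, with log2 fold changes of 0.44 to 0.51, and that of *Aqp4*, of astrocytes, without control 3 (adjusted p = 0.0126). Counting all 19 alternatives, the call was lost under 8 for *Itpr1*, 7 for *C1qa* and 4 for *Aqp4*. The summed levels went from 1404 to 1509 CPM in controls to 1935 to 2414 CPM in mutants for Purkinje cells and from 2185 to 2278 CPM to 3233 to 3518 CPM for astrocytes and Bergmann glia. The choroid plexus sum ranged from 73.7 to 140 CPM in controls and from 11.3 CPM in mutant 2 to 742 CPM in mutant 3, where *Mycn* was at 89.6 and 91.8 CPM and *Mxd3* at 12.3 and 12.6 CPM. The part of these changes in the values of the members was not tested.

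Total counts lay between 15391854 and 17178478 per library, at which 3 counts, the level taken as not detected, correspond to at most 0.196 CPM. The members had between 188 and 2333 counts in every library, so none was near that limit. The targeted gene *Tox3* was at 63.0 to 64.4 CPM in controls and 55.3 to 63.2 CPM in mutants (log2 fold change −0.11, adjusted p = 0.252). This count covers all exons and reads over the deleted part were not examined, so it does not check the labels. By RT-qPCR the authors reported near-complete loss of *Tox3* in P1 mutant cerebella.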

How the data were processed

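RNA of P1 mouse cerebella was sequenced as 6 poly-A selected, paired-end libraries, 3 control and 3 mutant. The authors aligned reads to mm10 with HISAT2 2.0.5 and counted them per gene with featureCounts 1.5.0-p3, as the submitters' processing notes and the methods give them, and deposited raw counts and FPKM values (counts scaled by gene length and library depth). How strand and reads with several matches were treated, and which annotation release was used, are not given in the sources used here. Groups were taken from the labels.

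A quasi-likelihood model with no covariates was fitted to the counts of all genes kept by filterByExpr, after TMM scaling (edgeR 4.0.16, R 4.3.3), with Benjamini-Hochberg adjustment. The common dispersion was 0.0105. Intervals are those of the model, and the depth per library is given with the results. Families were compared on FPKM with an exact permutation test. DESeq2 1.42.0, limma 3.58.1 on log2(FPKM + 1) and log2(FPKM + 0.1), other scalings, filters and thresholds, a replicate block, covariates and left-out libraries were tried as alternatives. The fits were tested on simulated counts. Libraries of a group differed by more than counting noise, with a chi-square per gene of 3.63 to 10.0.

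Named were all members, *Mnt*, *Mlxip*, *Mlxipl*, *Tox3*, *Atoh1*, at most 4 called genes of smallest p in each list, and the 3 genes most like each called member. *Prelid1*, *Psmc3ip*, *Gm47218*, *Trim32*, *Pdgfra*, *Xist* and *Ddx3y* were named after their values were seen. The members, lists and motifs were chosen with earlier results of these data known, so lists were counted and not tested as sets. Promoter sequences came from RefSeq (GRCm38.p6).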

Additional observations from a re-analysis of the deposited data

How the results depend on the processing

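*Mycn* (log2 fold change from −0.66 to −0.59) and *Mxd3* (from −0.80 to −0.66) were called lower under all 19 alternatives, and no member was called higher under any. The number of members called lower was 2 or 3. The third was *Mycl* with no threshold on the fold, and *Mga* with no filter on low counts (−0.54, adjusted p = 6.50e-08), with the replicate block (−0.55, adjusted p = 0.00161) and without mutant 2. The cause was not tested. Over all tested genes, 635 were called lower and 530 higher. limma on log2(FPKM + 1) called 407 and 300, the same without a filter 286 and 176, no threshold on the fold 1268 and 1147, and an adjusted p under 0.05 called 838 higher. Leaving out single libraries gave 349 to 569 higher, lowest without mutant 3. With CPM in place of FPKM, the *Mxd3* share of its family differed by −3.48 percentage points in place of −7.97, and the log2 ratio of the families by −0.46 in place of −0.35, since CPM weight long transcripts more. Same-numbered libraries deviated together with correlations of 0.26, 0.30 and −0.16, and not every library was most like its own number. Those numbered 1 both had *Ddx3y*, those numbered 2 both had *Xist*, and those numbered 3 differed in this. These correlations therefore cannot show whether the numbers mark shared litters, and the numbers were not treated as pairs in the main fit. The replicate block called 696 genes lower and 561 higher. With 3 libraries a group, small differences such as those of *Max* or *Mxd4* were not resolved here.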
